A study of Bactrocera dorsalis with 4 samples.

Results

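The predicted miRNAs of 18 to 20 nt are the short sequences among those that the study of the oriental fruit fly, Bactrocera dorsalis, listed as miRNAs without a match in miRBase. They were taken as all entries of the deposited table of predicted miRNAs whose mature sequence was 18, 19 or 20 nt long, with 1 member per distinct name. This gave 165 members, which were 165 of the 215 predicted names and 165 of the 427 miRNA names listed in all, known and predicted together. The paper itself reported fewer predicted miRNAs than these 215 names. Which of the 215 were among those it reported was not compared. Of the members, 76 were 18 nt, 62 were 19 nt and 27 were 20 nt long. The table was made from 4 small RNA libraries of adults aged 12 days, 1 each from female bodies without ovaries, male bodies without testes, ovaries and testes, with no replicate of any condition. The flies were virgins kept apart by sex from emergence, and no genotype or treatment differed between the libraries. The table joined the 4 libraries and gave no amount per library, so no member was compared between sexes or organs, and all values below are properties of the listed sequences and of their precursors.

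A miRNA is cut from a hairpin, a transcript that folds back on itself. Drosha trims the primary transcript in the nucleus, Dicer removes the loop in the cytoplasm, and the resulting duplex has a strand from the 5′ side (5p arm) and a strand from the 3′ side (3p arm), each overhanging the other by a few bases at its 3′ end. One strand is loaded into Argonaute, where the seed, bases 2 to 8 from the 5′ end, pairs with target mRNAs. Animal miRNAs often begin with U, often stand near each other in the genome, and pair along most of their length with the opposite arm. The deposited files write T for U, and so do the sequences printed here.

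The members are shown first by the feature on which most of the values below turn, the comparison of a listed sequence with its own precursor. In each pair the listed mature sequence stands above the same stretch of the deposited precursor, 5′ to 3′, and the capital marks the base that differs. The first 2 members carry the lowest first numbers in their names among those that differ, the next has the lowest folding free energy, and the last was the only member listed at 2 positions. Names end in 2 numbers, whose meaning the sources used here do not state. In all 215 names the second never rose as the first rose. The second number was under 10 in 53 of the 165 members and in 16 of the 50 names of 21 to 25 nt.
PC-5p-33_106377, listed: aaactgttcacaTgaact
PC-5p-33_106377, precursor: aaactgttcacaCgaact
PC-3p-2499_1019, listed: atcctgtccgcagcgCca
PC-3p-2499_1019, precursor: atcctgtccgcagcgAca
PC-3p-15746_151, listed: tccttgtggcTcttggcg
PC-3p-15746_151, precursor: tccttgtggcActtggcg
PC-5p-166612_6, listed: tcgggaagtgacaTcagcc
PC-5p-166612_6, precursor: tcgggaagtgacaCcagcc
Substitutions are given below with the precursor base first, the position from 1 at the 5′ end of the listed sequence, and the listed base last. The first member thus had C13T, the next A16C, the next A11T and the last C14T.

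Most of the short predicted sequences did not stand in the precursor that was deposited with them. Of the 165 members, 118 (71.5%, 95% exact binomial interval 64.0% to 78.3%) differed from their own precursor at exactly 1 base, and 47 (28.5%) stood in it without a difference. No member differed at more than 1 base, and none of the 50 names of 21 to 25 nt did. The paper accepted 1 mismatch when it assigned known miRNAs. It does not state whether the predicted ones were allowed a mismatch, and whether the limit of 1 base came from the alignment was not tested. The intervals here and below cover counting error over listed names only. Among the predicted miRNAs of 21 to 25 nt, 24 of 50 names differed at 1 base (48.0%, 33.7% to 62.6%). Within the members, the share was 76.3% at 18 nt (58 of 76), 75.8% at 19 nt (47 of 62) and 48.1% at 20 nt (13 of 27, 28.7% to 68.1%). The share of the 20 nt members was thus close to that of the longer class, but it rests on 27 names. Its interval overlapped those at 18 nt (65.2% to 85.3%) and 19 nt (63.3% to 85.8%). Within the longer class the share was 44.7% at 21 to 23 nt (21 of 47), and all 3 names of 24 and 25 nt differed. No member's listed sequence stood in the precursor of any other entry of the table.

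**Figure D1:**
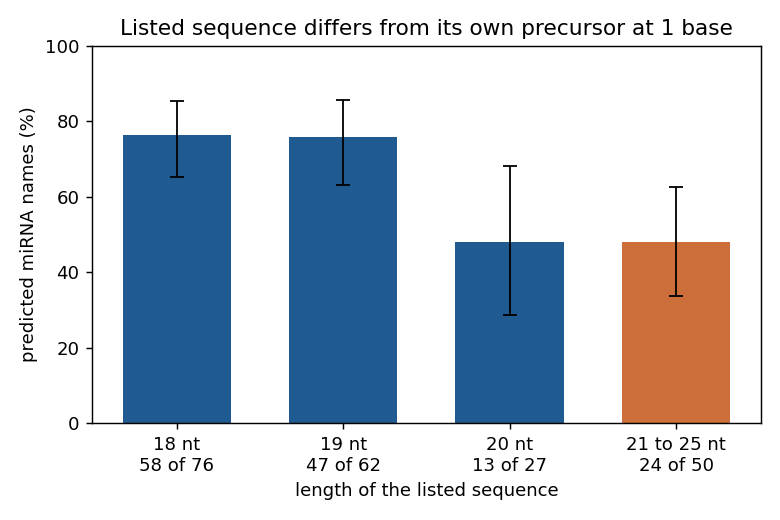
Share of predicted miRNA names (y axis, percent) whose listed sequence differs at 1 base from its own precursor, by length (x axis). Blue bars are members of 18, 19 and 20 nt, the orange bar is 21 to 25 nt, and the lines are 95% exact binomial intervals; 18 and 19 nt reach 76.3% and 75.8%, against 48.1% at 20 nt and 48.0% at 21 to 25 nt.

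The differing bases were spread over the listed sequences, with more of them past the seed. Of the 118 substitutions in members, 5 were at position 1, 29 (24.6%) at positions 2 to 8, 33 (28.0%) at positions 9 to 12 and 51 (43.2%) at position 13 or later. Position 16 held 14, position 17 held 11 and position 11 held 10, and no other position held as many. The last base was affected in 8 members and the last 3 bases in 28. Among the 24 substitutions of the 21 to 25 nt names, 11 (45.8%) lay in the seed and 8 (33.3%) at position 13 or later. The seed is the part used to assign targets, and in 29 of the 165 members the listed seed was thus not that of the precursor.

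**Figure D2:**
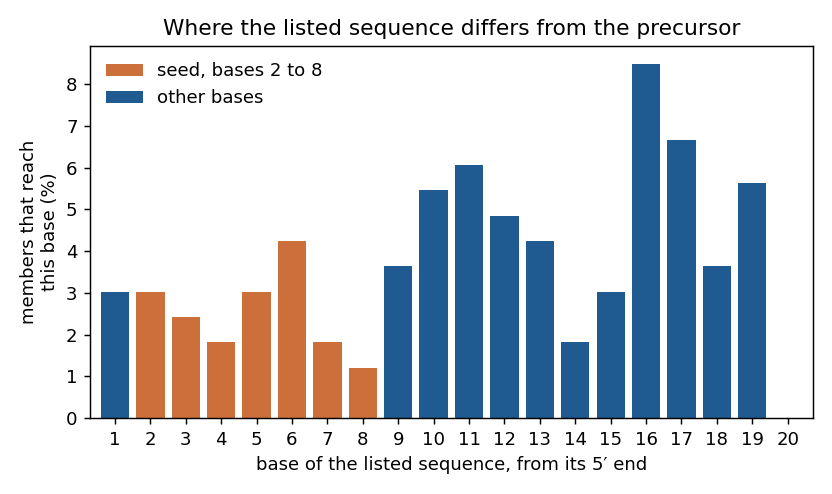
Share of the members long enough to have a given base (y axis, percent) whose listed sequence differs from the precursor at that base (x axis, position from the 5′ end). Orange bars are the seed, bases 2 to 8, and blue bars the other bases; position 16 is highest at 8.48% (14 members), and no member of 20 nt differs at position 20.

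No single kind of change made up the substitutions. Written from the precursor base to the listed base, A-to-G was seen in 16 members, T-to-A in 15, T-to-C in 15, A-to-T in 13 and T-to-G in 12, and the other 7 kinds in 4 to 10 members each. Transitions numbered 49 and transversions 69 in the members, against 14 and 10 in the names of 21 to 25 nt. At 94 of the 118 sites the precursor base was paired in the deposited structure, and at 70 of these 94 the listed base could not pair with the same partner, counting G with U as a pair. In the names of 21 to 25 nt, 19 of the 24 sites were paired, and at 12 of these 19 the listed base could not pair. When the listed base was put into the precursor and the precursor was folded again with RNAfold, the folding free energy was higher, that is, less stable, in 82 of the 118 members and lower in 25. At 21 to 25 nt it was higher in 12 of the 24 names and lower in 6. The median change, listed minus precursor base, was 0.9 kcal/mol (-4.7 to 5.5) in members and 0.2 kcal/mol (-4.4 to 6.5) in the 24 names of 21 to 25 nt. The deposited energies and structures thus describe genomic hairpins that, for most members, do not contain the listed RNA. The entries were chosen as hairpins, so a change at a paired base can be expected to break pairs and raise the energy. No other change of base was tried for comparison, so the pairing and energy counts do not show anything particular to the listed bases.

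PC-5p-166612_6 was listed on contig JFBF01000050.1 (344763 to 344830, plus strand) and on JFBF01000099.1 (252686 to 252753, minus strand). Both precursors were 68 nt long and shared a run of 25 bases, and both gave the same substitution, C14T. The deposited energies were -26.3 and -23.1 kcal/mol. With the listed base, the refolded energies were -30.7 and -28.7 kcal/mol, so in this member the listed base gave a lower energy at both positions.

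5 pairs of members resembled each other in sequence and were placed on different contigs. These pairs were chosen after their values were seen. The pairs with the longest shared runs are printed with the seed in capitals.
PC-5p-54860_28: tACCACGTctggatccgtt
PC-5p-93188_13: tACCACGTctggatccgt
PC-3p-137205_8: tATGTATAtggaaagaaag
PC-3p-154460_7: tGTATATGgaaagaaaggc
PC-5p-93188_13 was the first 18 bases of PC-5p-54860_28, and both carried the substitution G16C. They were placed on JFBF01000482.1 and JFBF01000866.1, in precursors that shared a run of 19 bases. PC-3p-137205_8 and PC-3p-154460_7 overlapped by 17 bases, offset so that their seeds differ. Their precursors, on JFBF01004885.1 and JFBF01000012.1, shared no run longer than 7 bases, and each fitted its own precursor only with a substitution, T15G in PC-3p-137205_8 and G5T in PC-3p-154460_7. The 2 listed sequences were thus more alike than the genomic hairpins to which they were assigned.

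The other pairs were alike in different ways. PC-5p-45039_37 and PC-5p-56084_27 shared 16 bases and both stood in their precursors without a difference. PC-3p-55166_28 and PC-3p-168088_6 shared 15 bases without a difference from their precursors, which shared a run of 32 bases. PC-3p-16670_141 and PC-3p-16809_139 had the same seed and a shared run of 10 bases, and each had 1 substitution. Counted over all members, there were 162 distinct seeds among 165 names, so the members formed almost no seed families among themselves.

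Among the known miRNAs, whose seeds do define families, few were matched. Only 3 of the 165 members had the seed of a known miRNA of the 4 libraries, against 4 of the 50 names of 21 to 25 nt. With known entries marked New left out, 2 members did, and this was not counted at 21 to 25 nt. A run of at least 14 bases was shared with a known miRNA by 1 member, against 2 of the 50. PC-3p-71396_19 had the seed of miR-315-5p and mir-315-p3, and PC-3p-75464_18 that of miR-929-5p. The sequences are printed with the seed in capitals.
PC-3p-71396_19: cTTTGATTtattgaagact
miR-315-5p: tTTTGATTgttgctcagaaagcc
PC-3p-75464_18: tAATTGACcgttaagcca
miR-929-5p: aAATTGACtctagtagggagt
Outside the seed these sequences diverged, and both members differed from their precursor at 1 base (C10A in PC-3p-71396_19 and C1T in PC-3p-75464_18). Their precursors, on JFBF01000006.1 and JFBF01000010.1, had deposited energies of -21.2 and -16.6 kcal/mol, and neither lay on the contig of the known miRNA printed below it.

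PC-5p-57217_26 was placed at a hairpin that the known lists also use. It was 20 nt long, began with U, stood in its precursor without a difference and was placed at JFBF01000020.1:1019353-1019431 on the plus strand, with a hairpin of 73 nt and a free energy of -26.7 kcal/mol. This precursor lies inside the one from which the known lists take miR-2a-3p and mir-2c-p5, at 1019339 to 1019446 on the same strand. miR-2 is a family that in Drosophila stands in clusters with miR-13. The precursor is printed with the member in capitals, followed by the sequences of both arms with the seed in capitals.
PC-5p-57217_26, precursor: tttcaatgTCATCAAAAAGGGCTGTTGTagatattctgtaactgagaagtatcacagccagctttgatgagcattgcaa
PC-5p-57217_26: tCATCAAAaagggctgttgt
mir-2c-p5: tCATCAAAaagggctgttg
miR-2a-3p, 22 nt form: tCACAGCCagctttgatgagca
miR-2a-3p, 20 nt form: tATCACAGccagctttgatg
The member shared 19 of its 20 bases with mir-2c-p5, which is 1 base shorter at the 3′ end. It was the only member whose precursor held a known miRNA, against 6 of the 50 names of 21 to 25 nt. Both forms of miR-2a-3p printed were listed in all 4 libraries, while mir-2c-p5, an entry marked New, was listed in male bodies only. In the deposited structure 14 of the 20 bases of the member were paired. Set against the 22 nt form of miR-2a-3p, the 3′ overhangs read from this structure were 3 bases on the 3p arm and 1 base on the 5p arm. Set against the 20 nt form, which the lists place on another contig but which also stands in this precursor, they were -1 and -1, that is, neither arm overhung the other at its 3′ end. The same strand of this contig held miR-13a-3p at 2118 bases, miR-13b-3p at 2536 bases and mir-14-p5 at 8235 bases, measured between precursor starts.

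PC-3p-44798_37 stood beside another set of known miRNAs but on the opposite strand. It was placed at JFBF01000027.1:1319137-1319216 on the plus strand. The minus strand held miR-9b at 970 bases, miR-79 at 2058 bases, miR-306-5p at 2703 bases and miR-9c at 4950 bases, genes that form a cluster in Drosophila as well. The member and its precursor site are printed with the differing base in capitals.
PC-3p-44798_37, listed: tattGggcaattgcattgta
PC-3p-44798_37, precursor: tattTggcaattgcattgta
Its substitution, T5G, lay in the seed. The free energy was -16.4 kcal/mol as deposited, above the member median given below, and -14.1 kcal/mol when refolded with the listed base.

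Genomic neighbours were rare among the members. With neighbours defined as another listed precursor whose start lay within 10000 bases on the same contig, 7 of 165 members (4.24%) had one, 3 of them a known miRNA and 4 a predicted one. Of the 50 names of 21 to 25 nt, 17 (34.0%) had one by the same measure, but most of these were other entries at the same or an overlapping position, and 2 of 50 (4%) had a neighbour elsewhere. The other known neighbour was mir-311-p3, an entry marked New and listed in ovaries only, 665 bases from PC-3p-275210_4 on the same strand. PC-5p-54860_28 lay 660 bases from PC-3p-76490_18 on the same strand. PC-5p-108052_11 lay 912 bases from PC-3p-95763_13, and PC-3p-90327_14 lay 9950 bases from PC-5p-324784_3, both on opposite strands. The members were spread over 136 contigs, with 77 of the 166 entries on the plus strand. 91 members were the only listed miRNA of their contig, where a neighbour could not be seen if the contig ended before it.

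**Figure D3:**
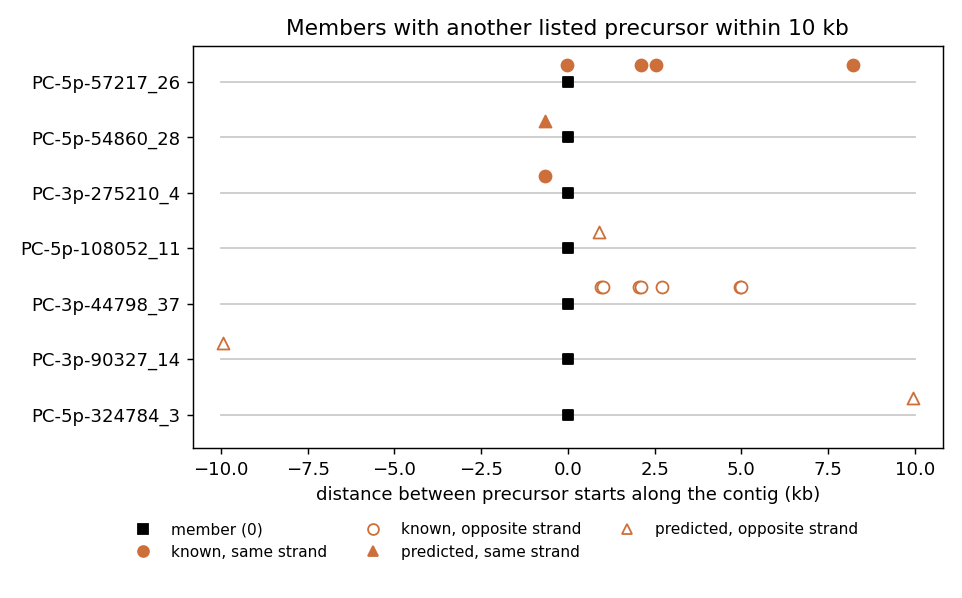
The 7 members with another listed precursor within 10 kb, 1 per line, with the member at 0 (black square) and the neighbours at the distance between starts (x axis, kb). Circles are known and triangles predicted miRNAs, filled on the same and open on the opposite strand; PC-5p-57217_26 and PC-3p-44798_37 each stand beside several known miRNAs.

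No member had both arms of its hairpin in the table. Of the 166 precursor positions of members, 0 had a 5p and a 3p entry, against 6 of the 48 positions of the 21 to 25 nt names. These 6 came to 2 separate cases when positions that overlapped on either strand or listed the same name were joined, since 5 of them, on 3 contigs, were linked in this way. A listed second arm is the measured counterpart of the Dicer duplex, and the nearest case among members was PC-5p-57217_26, whose second arm stood in the known lists as miR-2a-3p. The 5p arm gave 73 members (44.2%, 36.5% to 52.2%), against 29 of 50 (58.0%, 43.2% to 71.8%) at 21 to 25 nt. The share on the 5p arm was 48.7% at 18 nt, 41.9% at 19 nt and 37% at 20 nt, differences within the intervals of the shares. In all 166 entries the arm in the table was that of the side of the precursor on which the sequence stood.

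U was the first base of 101 of the 165 members (61.2%, 53.3% to 68.7%). It was the first base of 28 of the 50 names of 21 to 25 nt (56.0%, 41.3% to 70.0%) and of 158 of the 291 distinct known sequences (54.3%, 48.4% to 60.1%). A was first in 14.5%, C in 11.5% and G in 12.7% of members, against 22%, 16% and 6% at 21 to 25 nt. By length, U was first in 53.9% at 18 nt, 69.4% at 19 nt and 63.0% at 20 nt. Members that stood in their precursor without a difference began with U in 36 of 47 cases (76.6%, 62.0% to 87.7%), and those with a substitution in 65 of 118 (55.1%, 45.7% to 64.3%), with intervals that overlap. Read from the precursor in place of the listed base, the count of members was also 101.

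The hairpins of the members were close in median length to those of the longer class and had a higher, that is less stable, median free energy. The median hairpin length was 81 nt (50 to 142) over the 166 member entries and 86 nt (50 to 130) over the 54 entries of 21 to 25 nt. The median deposited free energy was -22.65 kcal/mol (-60.8 to -15, 95% interval of the median -23.7 to -21.4) in members, against -30.65 kcal/mol (-63.4 to -15.5, interval -37.3 to -24.7) at 21 to 25 nt. Per 100 nt of precursor the medians were -24.6 and -33.2 kcal/mol. The MFEI, the free energy per 100 nt divided by the percentage of G and C with the sign turned, had a median of 0.669 in members and 0.758 at 21 to 25 nt, where a higher value means a more stable fold for the base composition. The median G and C content was 37.5% in member precursors and 41.2% at 21 to 25 nt. By length, the median energy of members was -22.85 kcal/mol at 18 nt, -23.1 at 19 nt and -19.4 at 20 nt. It was -23.2 kcal/mol in members without and -22.5 kcal/mol in members with a substitution. Some entries of 21 to 25 nt shared or mirrored a precursor, so their 54 values were not all independent. Those on JFBF01000078.1, JFBF01000119.1 and JFBF01000299.1 were linked in this way. They ranged from -63.4 to -49.9 kcal/mol and lowered the median energy of that class. Its medians without these entries were not computed, so the size of the difference from members rests in part on them.

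**Figure D4:**
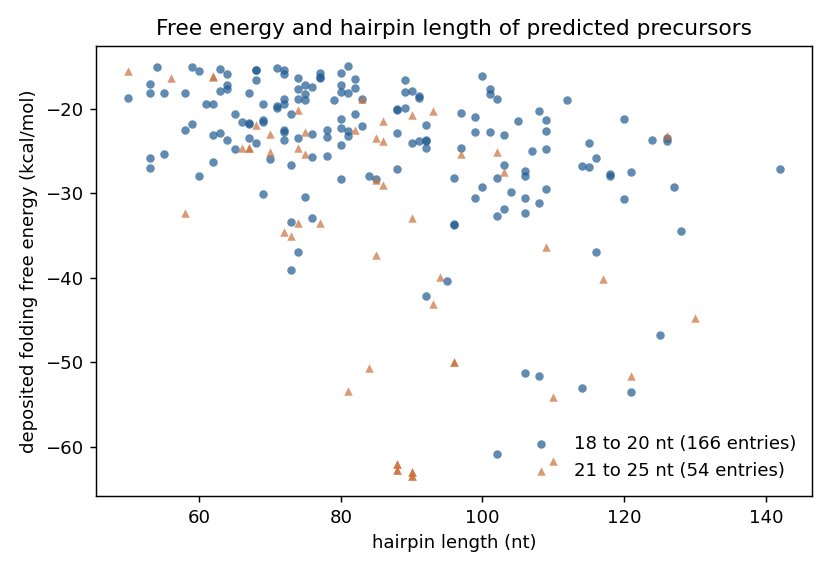
Deposited folding free energy (y axis, kcal/mol, lower is more stable) against hairpin length (x axis, nt), 1 point per entry. Blue circles are the 166 entries of 18 to 20 nt and orange triangles the 54 entries of 21 to 25 nt; the member with the lowest energy, PC-3p-15746_151, is at -60.8 kcal/mol and 102 nt.

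The most stable member hairpins named here carried a substitution, as did 118 of all 165 members (71.5%). The median energy was not lower in members with a substitution, as given above. PC-3p-15746_151, on JFBF01000010.1 (858997 to 859104, plus strand), had -60.8 kcal/mol, PC-3p-50173_32 had -53.5 kcal/mol with C11T, and PC-5p-90864_14 had -53.0 kcal/mol with A5T. The next by energy among the substituted members were PC-3p-149445_7 at -51.6 kcal/mol (C16T), PC-3p-26629_76 at -51.3 (A18G) and PC-3p-71826_19 at -46.7 (T12C). Members without a substitution did not reach below -42.2 kcal/mol. The precursors of PC-3p-26629_76 and PC-3p-15746_151 are printed with the place of the listed sequence in capitals, as examples of a fold that is nearly perfect and of one with more unpaired bases.
PC-3p-26629_76, precursor: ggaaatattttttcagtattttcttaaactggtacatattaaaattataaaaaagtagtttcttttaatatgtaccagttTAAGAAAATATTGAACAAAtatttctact
PC-3p-15746_151, precursor: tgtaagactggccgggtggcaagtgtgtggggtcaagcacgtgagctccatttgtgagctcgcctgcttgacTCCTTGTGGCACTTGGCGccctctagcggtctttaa
In PC-3p-26629_76 a single base of the listed stretch was unpaired and a run of 32 pairs followed each other without a break, against a median longest run of 8 pairs over the member entries (4 to 32) and of 9 (6 to 27) at 21 to 25 nt. Its G and C content was 19.3% and its MFEI, 2.44, was the highest of the members. In PC-3p-15746_151, 6 bases of the listed stretch were unpaired.

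At the other end, PC-3p-40834_43 and PC-5p-104053_12 had -15.1 kcal/mol and PC-3p-38266_47 had -15 kcal/mol. No entry of the table was above -15 kcal/mol. PC-3p-38266_47 stood in its precursor without a difference, while the other two carried C9T and A6C. The longest hairpins were those of PC-3p-154460_7 (142 nt), PC-5p-8868_296 (128 nt) and PC-5p-28660_69 (127 nt), each with a substitution. The shortest was that of PC-5p-14405_169 (50 nt, A17T), followed by 4 members tied at 53 nt. Of these, PC-3p-118778_10, PC-3p-155985_7 and PC-5p-16651_141 stood in their precursors without a difference and PC-3p-15812_150 had T16A.

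Within the hairpin, the listed stretch had a median of 5 unpaired bases in members (1 to 7) and of 5 (0 to 7) at 21 to 25 nt. No entry had more than 7, and no member of 18 nt had more than 6. At most 4 unpaired bases were found in 59 of 165 members (35.8%, 28.5% to 43.6%), against 22 of 50 names of 21 to 25 nt (44%, 30.0% to 58.7%). On this measure a longer sequence has more bases that can be unpaired. Refolding with RNAfold raised the count with at most 4 from 60 to 75 of the 166 member entries and from 26 to 31 of the 54 longer entries. The refolded structure was the deposited one in only 52 of the 166 and 24 of the 54. At least 16 paired bases were found in 21 members (12.7%, 8.05% to 18.8%), against 34 of the 50 (68.0%, 53.3% to 80.5%), a measure on which a longer sequence has more bases to pair. No member was without an unpaired base, while 6 of the 50 names of 21 to 25 nt were. These 6 names, which are also among the 22 above, were not separate cases. They all lay on JFBF01000078.1, JFBF01000119.1 and JFBF01000299.1, at positions that overlapped or listed the same name. The prediction searched for hairpins, so a hairpin fold was set by how entries were chosen. The listed stretch paired to 1 side only in all 165 members and in all 50 names of 21 to 25 nt. A single terminal loop was found in 160 members (97.0%), against 44 of the 50 (88%).

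**Figure D5:**
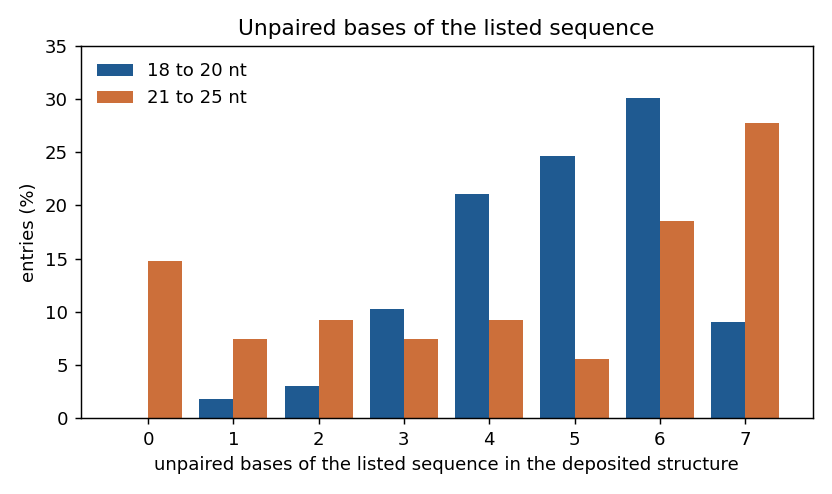
Share of entries (y axis, percent) by the number of unpaired bases of the listed stretch in the deposited structure (x axis). Blue bars are 18 to 20 nt and orange bars 21 to 25 nt; member entries have 1 to 7 unpaired bases with a median of 5, and the 0 class holds entries of 21 to 25 nt only, all from linked positions.

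The members with the lowest first numbers in their names differed from each other in these features. PC-5p-33_106377 was 18 nt long and began with A, with a free energy of -24.8 kcal/mol. PC-3p-1818_1311 was 19 nt long, began with U and stood in its precursor without a difference, at -27.4 kcal/mol. PC-3p-2499_1019 is printed above with its substitution A16C, which turns the end of the listed sequence into CCA where the precursor has ACA. Its precursor is printed with the place of the listed sequence in capitals.
PC-3p-2499_1019, precursor: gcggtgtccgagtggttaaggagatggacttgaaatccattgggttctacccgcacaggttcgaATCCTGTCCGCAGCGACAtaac
The letters GTTCGANTC, with N for any base, are those of the T loop of many tRNA genes, and CCA is added to the 3′ end of tRNAs after transcription. Searched on both strands, GTTCGANTC was in 1 of the 166 precursors of members (0.602%) and in 0 of the 54 at 21 to 25 nt, and that 1 was the precursor of PC-3p-2499_1019, at its bases 59 to 67, overlapping the start of the listed sequence at base 65. Listed sequences ended in CCA in 2 of 165 members and their precursor sites in 1. Among the 50 names of 21 to 25 nt these counts were 1 and 1, so an end in CCA did not set the members apart. This motif was chosen after the sequence was seen, a match is a description of the letters only, and whether the place is a tRNA gene was not tested.

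Set against the known miRNAs of the same libraries, the predicted sequences were shorter. Of the 215 predicted names, 165 (76.7%, 70.5% to 82.2%) were 18 to 20 nt, against 92 of the 291 distinct known sequences (31.6%, 26.3% to 37.3%). Over the features that were counted, PC-5p-57217_26 was the only member with the opposite arm, a known precursor and a known cluster on the same strand, and it had 6 unpaired bases in the listed stretch.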

How the data were processed

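The authors removed adaptors and reads matching mRNA, Rfam and Repbase, set known miRNAs aside, and searched the genome for hairpins. Per the labels this used ACGT101-miR 4.2, while the study's text names MIREAP for the predicted miRNAs and RNAfold for the hairpins. Their deposited table for the combined libraries gives each predicted miRNA with its length, arm, position, precursor, structure and folding energy score in kcal/mol. The deposited lists of known miRNAs give names, sequences and positions. Read amounts per entry were not used here, so the depth behind a listed sequence is unknown. 1 line of the table is not reported here.

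Each listed sequence was placed in its own precursor with the fewest differing bases. Pairing was read from the deposited structure, and precursors were refolded with RNAfold 2.7.2 at 37 degrees. Shares have exact binomial and medians order-statistic 95% intervals. Python 3.11.15, numpy 2.4.6, scipy 1.17.1 and matplotlib 3.10.9 were used. Placing, pairing and distances were checked on 350 simulated cases, all 350 recovered. No test between groups was made, since no condition had a replicate.

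Members named were those with another arm or neighbour listed, more than 1 position, a seed or run of 14 bases shared with a known miRNA, the 3 lowest and 3 highest energies, the 3 longest and 3 shortest hairpins with 2 more tied at the limit, the 3 lowest first numbers, and, of those not standing in their precursor, the 6 of lowest energy. Pairs alike in sequence and the member with the GTTCGANTC motif as such were chosen after their values were seen. The members and lists were chosen with earlier results of these data known. Names, arms, neighbours, pairing and shared bases were also counted in other ways, and energies refolded. The contigs were those named in the files, and the build is not given in the sources used here.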

Additional observations from a re-analysis of the deposited data

How the results depend on the processing

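Of 27 alternatives, 21 gave a value inside the 95% interval of the share or median, or within 1.5 times the count. Some of the 21 could not move. The 166 entries had 166 precursor positions, so 1 value per position was the same set. The arm by position was the listed arm in all 166 entries. Counting entries in place of names added only the further position of PC-5p-166612_6. Among these 21 was the count of members with at most 4 unpaired bases, 74 when refolded against 59. As a share, that refolded value would lie outside the interval given for the 59. The other 6 were these. Members with a neighbour numbered 14 within 50000 bases and 3 on the same strand only, against 7. All 165 members stood in their precursor with 1 mismatch allowed, against 47. With bases 2 to 7, 12 members shared a seed with a known miRNA, against 3. Among 20 nt members alone, 48.1% differed from their precursor, against 71.5%. Refolded with the listed base, the median energy was -21.3 kcal/mol, against -22.65. The last 2, and for the differing base also 18 nt alone, 19 nt alone and 1 vote per entry, for U the first base of the precursor, and for neighbours New entries left out, were chosen after seeing the data. A match of the members to the genome was not run, since no genome of this build was used here. No paired analysis was possible because each condition had 1 library. No read counts of the entries were used, and whether the second number of a name is a count is not stated. The support of a single member is thus unknown.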
